A study of Mus musculus with 13 samples.

Results

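The 10 MP tumors were split by their own level of Wt1, the gene for a zinc finger transcription factor. Of these, 4 were chosen by a Wt1 value of at least 20 TPM (MP4, MP5, MP6 and MP9, called Wt1-high) and 6 by a value under 5 TPM (MP1, MP2, MP3, MP7, MP8 and MP10, called Wt1-low), out of 13 libraries in all. TPM is a transcript's share of all transcripts, scaled so that each library sums to 1000000. The MP tumors arose in C57BL/6 female mice of 8 to 12 wk after the ovary was electroporated with a transposon carrying MYC and a CRISPR-Cas9 vector against Trp53, a method named EPO-GEMM, and all 10 share this genotype (Myc;p53-/-). The tumors were not treated, and RNA came from whole tumor tissue taken at end point. Electroporation does not choose a cell type, and the cell of origin of each tumor is not given by the labels. From other mice, in which only keratin-expressing epithelial cells could be edited, the authors concluded that EPO-GEMM tumors have an epithelial origin. The other 3 libraries are ovaries of untreated wild-type (WT) C57BL/6 female mice, whose labels carry the same protocol text with the age of 8 to 12 wk. Each library is bulk tissue, in which more cells of a type and more RNA per cell cannot be told apart.

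WT1 is made in the mesothelium, the ovarian surface epithelium and the supporting cells of the gonad, and it is a routine marker of serous ovarian carcinoma. It is needed for the formation of the gonad and the kidney, where it acts beside retinoic acid made by ALDH1A2 and beside the Wnt ligand WNT4 and its booster RSPO1. Genes of these pathways and markers of the cell types that carry WT1 are therefore described first.

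Wt1 (ENSMUSG00000016458, GRCm38 chr2:105126529-105173616, plus strand) was at 48.5 TPM in MP4, 163 in MP5, 24.5 in MP6 and 130 in MP9. It was at 0.135 TPM in MP1, 3.22 in MP2, 1.71 in MP3, 2.60 in MP7, 2.61 in MP8 and 1.76 in MP10. MP6 lay just inside the upper limit and MP2 just inside the lower one, and no tumor lay between. The 3 WT ovaries held 45.5 to 49.6 TPM, a level that MP5 and MP9 exceeded and MP6 did not reach. These values chose the tumors and were not tested. The antisense RNA Wt1os, which starts beside Wt1 on the opposite strand, was left out of the counts with Wt1; it was at 2.72 to 19.7 TPM in the Wt1-high tumors and at 0.154 to 1.72 TPM in the Wt1-low tumors.

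The split does not fall evenly over the sequencing batches named in the labels. Batch 1 held MP1, MP2 and MP3, all Wt1-low, together with the 3 WT ovaries, and batch 2 held MP4, MP5 and MP6, all Wt1-high. Batch 3 held MP9 (Wt1-high) with MP7, MP8 and MP10 (Wt1-low) and is the only batch with tumors of both kinds, so between batches 1 and 2 the split and the batch cannot be told apart. WT levels below are descriptions that share a batch with MP1, MP2 and MP3 alone. Wt1-high libraries were shallower, at 3892690 to 8998620 reads against 5464497 to 19906507 reads in Wt1-low tumors. In MP2 the 10 most abundant genes took 55.1% of all TPM, against 7.92% to 20.6% in the other tumors.

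Of 15831 genes tested with limma on log2(TPM + 1), 21 (0.133%) were higher in Wt1-high tumors at a Benjamini-Hochberg adjusted P value under 0.05, and 0 (0.0%) were lower. At an unadjusted P value under 0.05, 2397 genes (15.1%) were higher and 345 (2.18%) were lower. All 21 genes code for proteins, and their TPM did not overlap between the 4 and the 6 tumors, which held for 367 of the genes tested (2.32%) in the same direction. The median difference over all genes was 0.51 on the log2 scale rather than 0, and 74.6% of genes had a positive difference. It was 0.01 in batches 2 and 3 alone and -0.01 after median-of-ratios scaling. The differences of the 21 genes ran from 3.04 to 6.18. With median-of-ratios scaling 6 of the 21 passed the threshold, with a pseudocount of 0.1 only 1 did, and with no filter on low values 0 did. All 21 differences stayed positive, which their lack of overlap largely fixes in advance.

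The count of 21 depended on single tumors. The number of genes called higher was 0 without MP2, 1 without each of MP1, MP3, MP5 and MP7, and 3 without MP9. It was 282 without MP6 and 402 without MP10. These counts are over all genes tested. Without MP5, 0 of the 21 passed, and without MP9, 2 of the 21 did. All 21 genes stayed higher on average in each of these fits, which follows from their lack of overlap and adds no support.

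Aldh1a2, the enzyme that makes retinoic acid in the embryonic urogenital tract and in mesothelium, had the largest difference of the 21 genes. It was at 781 TPM in MP4, 810 in MP5, 442 in MP6 and 702 in MP9, against 0.302 to 87.5 TPM (median 5.69) in the Wt1-low tumors. Every Wt1-high tumor thus held at least 442 TPM, and MP8 and MP10, both of batch 3, were the highest of the Wt1-low tumors. WT ovaries held 165 to 453 TPM. The log2 difference was 6.18 ± 1.08 (SE, n = 4 and 6; limma adjusted P = 0.0459). Within batch 3 it was 4.99.

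Other genes of retinoid metabolism did not pass the threshold. Stra6, the membrane receptor that takes up retinol, was at 106 TPM in MP9 and 31.7 TPM in MP5 but at 1.18 TPM in MP4, below the 1.79 TPM of MP8. Dhrs3, which reduces retinal back to retinol, was at 32.5 to 158 TPM and at 3.505 to 29.3 TPM. Of 21 tested genes of the retinoid list, 1 was called higher and 0 lower, against 0.133% and 0.0% of all genes tested. The median log2 difference was 1.28 in 10 tumors, against 0.51 for all genes, and 0.65 in batches 2 and 3, against 0.01.

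Rspo1 and Wnt4 were the called genes of the Wnt list. Rspo1, the secreted protein that raises the response to Wnt ligands and drives ovarian rather than testicular development, was at 105 TPM in MP4, 230 in MP5, 11.5 in MP6 and 123 in MP9. The Wt1-low tumors held 0.574 to 7.67 TPM (median 2.38), so MP6 stood close to them (log2 difference 4.56 ± 0.76, limma adjusted P = 0.0415). MP4, MP5 and MP9 of the Wt1-high tumors were far above the WT ovaries, at 15.5 to 18.1 TPM. Wnt4, a ligand of the same ovarian pathway, was at 53.5, 50.3, 5.34 and 49.3 TPM in MP4, MP5, MP6 and MP9 and at 0 to 1.69 TPM (median 0.370) in Wt1-low tumors (log2 difference 4.32 ± 0.65, limma adjusted P = 0.0360). WT ovaries held 188 to 318 TPM of Wnt4, above every tumor.

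Axin2, a widely used target of Wnt signaling through beta-catenin, did not pass the threshold. It was at 66.3, 26.6, 2.26 and 34.4 TPM in MP4, MP5, MP6 and MP9 and at 0.0981 to 4.65 TPM in Wt1-low tumors, where MP7 lay above MP6 (log2 difference 3.52 ± 0.77, limma adjusted P = 0.0822). Wnt9a, another ligand, was at 19.1, 11.2, 0.533 and 13.1 TPM against 0 to 0.294 TPM (limma adjusted P = 0.0740). Of 44 tested genes of the Wnt list, 2 were called higher and 0 lower, against 0.133% and 0.0% of all genes tested. The list's median log2 difference was 1.501 in 10 tumors, against 0.51 for all genes, and 0.84 in batches 2 and 3, against 0.01. Nbl1, a secreted antagonist of bone morphogenetic proteins, was called higher (121, 369, 64.8 and 253 TPM in MP4, MP5, MP6 and MP9 against 1.80 to 40.2 TPM; log2 difference 4.25 ± 0.76, limma adjusted P = 0.0459). Tgfb3, a ligand of the TGFb family, was at 30.3 to 130 TPM and at 1.79 to 15.0 TPM, with a limma adjusted P value of 0.0661.

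**Figure D1:**
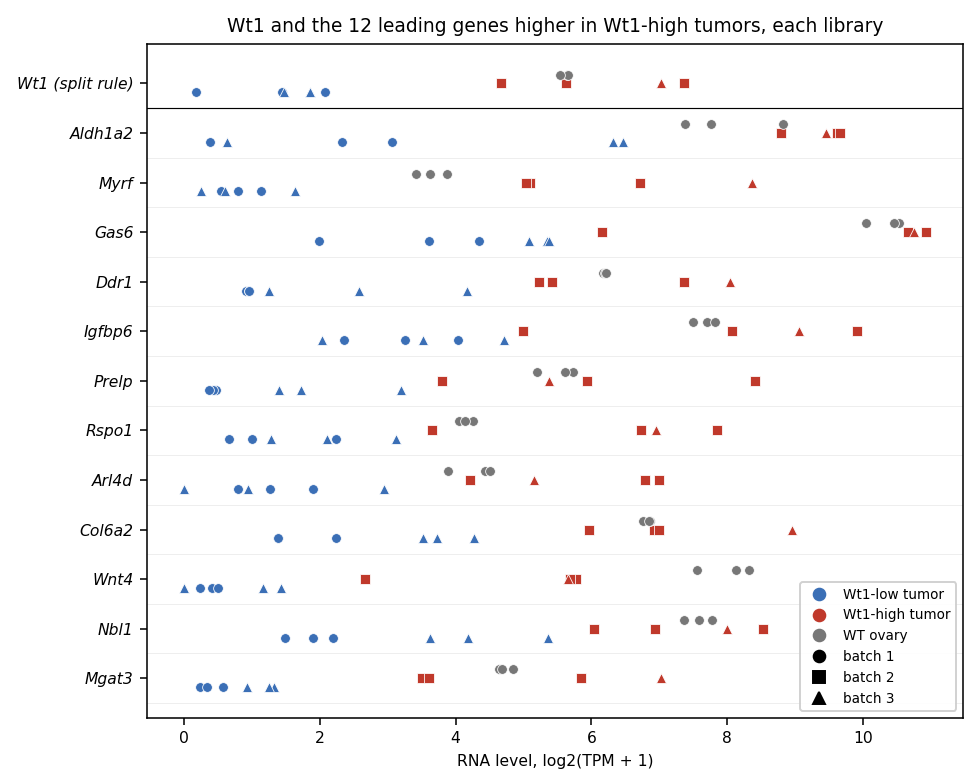
RNA level as log2(TPM + 1) (x axis) of Wt1 and of the 12 called genes with the largest difference (rows), 1 point per library, with Wt1-low tumors in blue, Wt1-high tumors in red, WT ovaries in gray and the marker shape giving the batch. For each gene the 4 red points lie to the right of the 6 blue points, and the red point nearest to them is MP6 for each called gene shown but Ddr1 and Mgat3, where it is MP4.

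The called genes were searched for letters that WT1 is known to bind. A RefSeq promoter window (GRCm38.p6, 250 bases before to 50 after the start) was found for 16 of the 21 genes. A pair of published WT1 sequences, GCGGGGGCG and GCGTGGGNG, which belong to the same family of motifs, were searched on both strands. Either was present in 2 of the 16 genes (12.5%; Ddr1 and Col6a6), near the 9.77% of all tested genes with a window. Shown 5′ to 3′ on the strand of the gene are the 250 bases before the start of Aldh1a2 (chr9:71215539-71215788, plus strand) and Rspo1 (chr4:124986180-124986429, plus strand), the leading genes of the retinoid and Wnt groups, and of 1 start of Ddr1 (chr17:35700591-35700840, minus strand). Capitals mark the match, which begins 85 bases before that start of Ddr1, and the Aldh1a2 and Rspo1 windows held none.
Aldh1a2: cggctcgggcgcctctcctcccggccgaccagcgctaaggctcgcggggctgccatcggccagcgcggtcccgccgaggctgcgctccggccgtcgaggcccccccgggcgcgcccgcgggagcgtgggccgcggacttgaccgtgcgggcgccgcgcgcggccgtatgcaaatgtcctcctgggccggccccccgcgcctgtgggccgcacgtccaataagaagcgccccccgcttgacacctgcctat
Rspo1: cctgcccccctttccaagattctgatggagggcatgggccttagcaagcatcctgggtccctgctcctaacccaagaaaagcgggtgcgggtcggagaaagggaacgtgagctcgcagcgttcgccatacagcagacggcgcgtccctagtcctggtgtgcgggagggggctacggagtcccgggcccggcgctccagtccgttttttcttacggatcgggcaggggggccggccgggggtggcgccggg
Ddr1: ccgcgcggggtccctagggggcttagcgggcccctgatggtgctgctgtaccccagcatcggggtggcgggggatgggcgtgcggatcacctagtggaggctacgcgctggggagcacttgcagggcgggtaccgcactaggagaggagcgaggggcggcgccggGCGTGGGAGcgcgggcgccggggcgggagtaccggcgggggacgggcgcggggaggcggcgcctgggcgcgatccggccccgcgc
The other 3 windows of Ddr1 held no match, and the match of Col6a6 lay after its start. A match of letters is a description and does not show that WT1 binds there.

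Ligands and receptors outside the Wnt family were also among the called genes. Gas6, the ligand of the receptors Tyro3, Axl and Mertk, was at 1623 TPM in MP4, 1947 in MP5 and 1725 in MP9 but at 70.1 TPM in MP6. The Wt1-low tumors held 2.95 to 40.4 TPM and the WT ovaries 1053 to 1482 TPM. Its log2 difference was 5.34 ± 0.91 (limma adjusted P = 0.0459). Its receptor Axl was at 60.4 to 240 TPM in Wt1-high tumors and did not pass the threshold (adjusted P = 0.1104, limma), and MP10, a Wt1-low tumor, held 87.9 TPM. Igfbp6, a secreted protein that binds insulin-like growth factor 2, was at 268, 965, 30.7 and 534 TPM in MP4, MP5, MP6 and MP9 and at 3.08 to 25.2 TPM in Wt1-low tumors (log2 difference 4.69 ± 0.82, limma adjusted P = 0.0459). Of 32 tested genes of the FGF, IGF and PDGF list, Igfbp6 was the 1 called, against 0.133% of all genes tested. Igfbp4 and Fgf18 did not overlap between the groups either (192 to 898 against 6.92 to 98.3 TPM, and 8.08 to 28.5 against 0.303 to 3.44 TPM), with limma adjusted P values of 0.0748 and 0.0623.

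Col6a2, Col6a6, Ddr1, Prelp and P3h4 are described together for their roles, a grouping made after the calls and not a fixed list. Col6a2, a chain of collagen VI, was at 120, 126, 61.2 and 493 TPM in MP4, MP5, MP6 and MP9 and at 1.603 to 18.2 TPM (median 7.07) in Wt1-low tumors (log2 difference 4.45 ± 0.71, limma adjusted P = 0.0360). Col6a6, another collagen VI chain, was at 7.67 to 72.3 TPM and at 0.0152 to 2.53 TPM. Col6a1, the partner chain of Col6a2, was at 118 to 1165 TPM, but MP10 held 212 TPM and it did not pass (adjusted P = 0.113, limma). Ddr1, a receptor tyrosine kinase that collagen activates, was at 36.4, 164, 41.7 and 262 TPM against 0.874 to 17.003 TPM (log2 difference 4.71 ± 0.77, limma adjusted P = 0.0360). Prelp, a leucine-rich repeat proteoglycan, and P3h4, which takes part in the modification of collagen lysines, were called as well. P3h4 showed the tightest Wt1-high values of these genes, at 91.2 to 158 TPM against 4.66 to 33.9 TPM. Of 37 tested genes of the collagen, basement membrane and matrix list, which did not hold these 5 genes, 0 were called in either direction, with a median log2 difference of 1.79 in 10 tumors and 0.60 in batches 2 and 3.

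Myrf, a membrane-bound transcription factor known for its role in myelination, had the smallest adjusted P value. It was at 33.1 TPM in MP4, 104 in MP5, 31.7 in MP6 and 327 in MP9. The Wt1-low tumors held 0.193 to 2.10 TPM (median 0.629) and the WT ovaries 9.66 to 13.6 TPM, so each Wt1-high tumor lay above every other library. The log2 difference was 5.47 ± 0.65 (limma adjusted P = 0.0114). Mgat3, which adds the bisecting sugar to N-glycans, was at 10.3, 56.8, 11.2 and 129 TPM against 0.179 to 1.504 TPM (log2 difference 4.22 ± 0.68, limma adjusted P = 0.0360).

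Peg3, an imprinted zinc finger gene expressed from the paternal copy, was at 38.9, 96.5, 35.7 and 93.7 TPM in MP4, MP5, MP6 and MP9. It was at 1.05 to 11.6 TPM in Wt1-low tumors and at 5.03 to 6.77 TPM in WT ovaries (log2 difference 3.64 ± 0.58, limma adjusted P = 0.0360). The WT ovaries therefore lay among the Wt1-low tumors for Peg3, whereas for 20 of the 21 genes the WT mean was above the highest Wt1-low tumor. This held for 33.0% of all genes, but the 21 were called for low values in Wt1-low tumors, which favors their count. The WT mean was above the lowest Wt1-high tumor for 17 of the 21 genes, against 86.2% of all genes. Igf2 and H19, which are also imprinted, were at 41.6 and 3856 TPM in MP4 but at 0.986 and 153 TPM in MP9, and neither passed (limma adjusted P = 0.127 and 0.108). The remaining called genes were the small GTPase Arl4d, the phosphodiesterase Gdpd2, the kinase Wnk4 of renal salt transport, the xylosyltransferase Gxylt2, the cilium radial spoke gene Rsph1, Cercam and the cytochrome P450 gene Cyp2d22, with log2 differences of 3.04 (Cyp2d22) to 4.47 (Arl4d).

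The 21 genes were then followed across the batches. Within batch 3, MP9 was above the mean of MP7, MP8 and MP10 for all 21, by 1.97 (Gdpd2) to 7.53 (Myrf) on the log2 scale. In tumors that share none with these, MP4, MP5 and MP6 exceeded MP1, MP2 and MP3 by 3.05 (Cyp2d22) to 7.43 (Aldh1a2), but there the batches differ. In batches 2 and 3 together the differences of the 21 ran from 2.34 to 5.47. The 21 genes had been called on these same tumors and did not overlap between the groups, so their positive differences in each subset follow from that choice and are given as a description. Over all genes, limma called 0 higher in batches 2 and 3 (0.0%), with 641 (4.05%) at an unadjusted P value under 0.05. With batch as a covariate in all 10 tumors, where the estimate rests on MP9 alone against MP7, MP8 and MP10 and the lone tumor is assumed to vary like the others, 27 genes (0.171%) were called higher and 1 (0.00632%), the metallothionein gene Mt2, was called lower. Of the 21, Myrf, Col6a2 and Mgat3 were among the 27, which share these tumors with the fit that chose them, and the fit of batch 3 alone called 0 genes in either direction (0.0%).

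**Figure D2:**
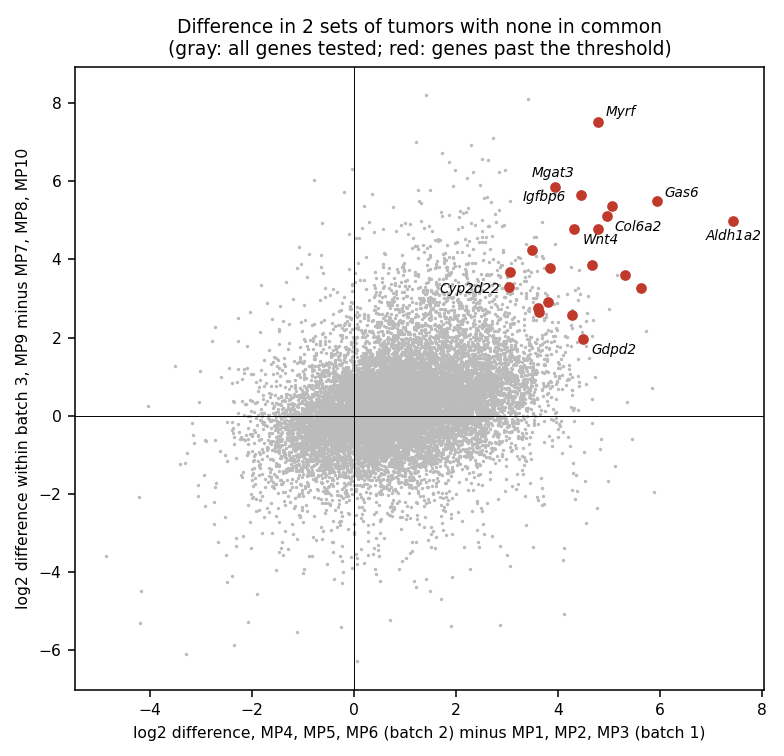
Log2 difference of MP4, MP5 and MP6 minus MP1, MP2 and MP3 (x axis, across batches 1 and 2) against that of MP9 minus MP7, MP8 and MP10 (y axis, within batch 3), with all genes tested in gray and the 21 called genes in red. All red points lie in the upper right, from 3.05 on the x axis (Cyp2d22) and from 1.97 on the y axis (Gdpd2).

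MP6 differed from the other Wt1-high tumors. It held the lowest value of the 4 in 16 of the 21 called genes, against 27.8% of all genes, and it also has the lowest Wt1 of the 4. Several markers of the mesothelium and ovarian surface epithelium were low in MP6. Upk3b, a uroplakin that marks mesothelium, was at 71.6 TPM in MP4, 75.9 in MP5 and 335 in MP9 but at 0.604 TPM in MP6. Its Wt1-low values were 0.117 to 1.48 TPM, so MP6 lay among them, and WT ovaries held 53.9 to 71.4 TPM. Krt19, a keratin of simple epithelia, was at 205, 32.8 and 151 TPM in MP4, MP5 and MP9 and listed at 0 in MP6, MP7 and MP10. Neither gene passed in 10 tumors (limma adjusted P = 0.0892 and 0.148).

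Other defining mesothelial markers were uneven. Lrrn4 was at 162 TPM in MP9, 12.6 in MP5 and 6.01 in MP4, and at 0.956 TPM in MP6, within the 0.276 to 1.41 TPM of Wt1-low tumors. Bnc1, a zinc finger gene of surface epithelia, was at 272 TPM in MP9 and at 2.06 to 21.8 TPM in the other Wt1-high tumors. Both were called with batch as a covariate (limma adjusted P = 0.0166 and 0.0470), a fit that rests on MP9. Msln, the mesothelin gene, was at 43.8 TPM in MP9 and 10.6 TPM in MP4 but at 0.374 and 0.168 TPM in MP5 and MP6, below MP1, MP2 and MP3 (2.81 to 3.55 TPM). Upk1b was at 28.8, 3.57 and 29.6 TPM in MP4, MP5 and MP9 and listed at 0 in MP6. Calb2, the calretinin gene, stayed at or under 0.864 TPM in every tumor and under 1 TPM in WT ovaries. Only MP9 thus held Msln, Upk3b, Lrrn4, Upk1b and Bnc1 all above 20 TPM.

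The whole list of mesothelial and surface epithelial genes had the largest median difference of the 32 lists. Of 24 members tested, 2 were called higher (Aldh1a2 and Rspo1) and 0 lower, against 0.133% and 0.0% of all genes tested. The median log2 difference was 2.57 in 10 tumors and 2.09 in batches 2 and 3. Its summed level was 1418 to 5034 TPM in Wt1-high tumors and 126.5 to 1384 TPM in Wt1-low tumors, with MP6 (1418) and MP7 (1384) next to each other. Without the called members Aldh1a2 and Rspo1, a sum added after the data were seen, MP6 held 965 TPM and MP7 1376 TPM, so the groups overlapped. With MP6 left out of batches 2 and 3, 6 genes were called higher, namely Gas6 (log2 difference 5.51, limma adjusted P = 0.000297), Upk3b, Krt19, Rspo1, Wnt4 and Smim1. These genes were chosen after their values were seen. Whether the share of mesothelial cells has a part in the differences of the called genes was not tested.

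**Figure D3:**
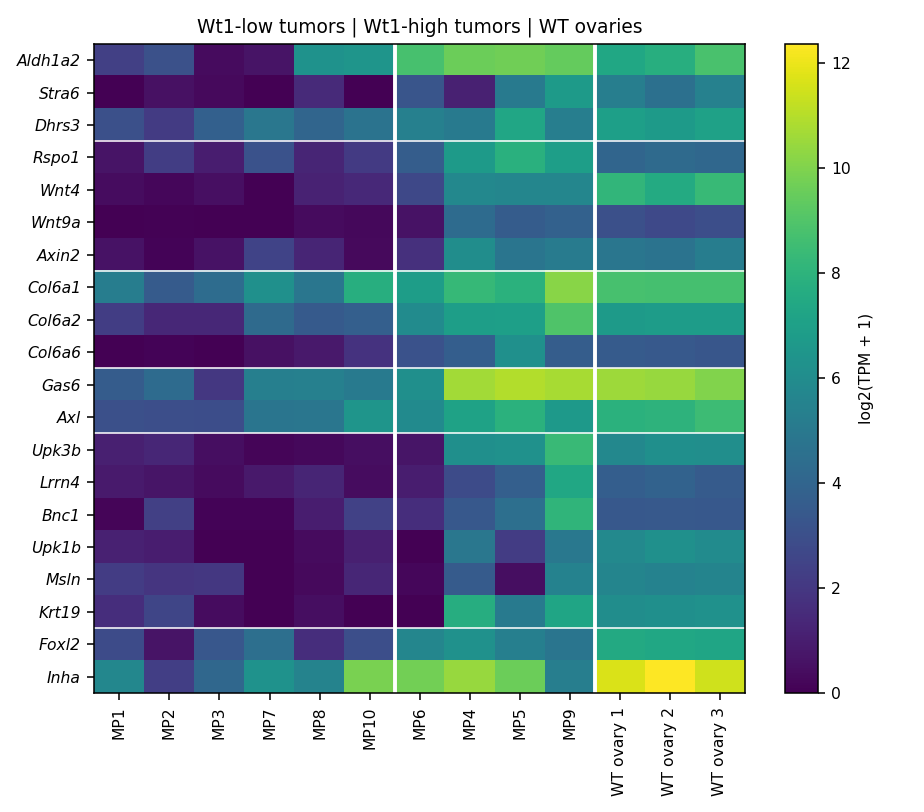
Level as log2(TPM + 1) (color) of retinoid, Wnt, collagen VI, Gas6 and Axl, mesothelial and granulosa genes (rows, groups parted by lines) in each library (columns). The mesothelial genes from Upk3b to Krt19 are dark in MP6 as in the Wt1-low tumors, whereas Aldh1a2 is bright in MP6 (442 TPM) as in MP4, MP5 and MP9.

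A list of genes linked to WT1 in development and disease also had a median difference above that of all genes. Of 33 members tested, 3 were called higher (Aldh1a2, Rspo1 and Wnt4) and 0 lower, against 0.133% and 0.0% of all genes tested. The median log2 difference was 1.82 in 10 tumors, against 0.51 for all genes, and 1.12 in batches 2 and 3, against 0.01. In the 10 tumors 97.0% of its members had a positive difference, against 74.6% of all genes. The summed level of the list overlapped between the groups, at 1637 to 3438 TPM in Wt1-high tumors and 125 to 2019 TPM in Wt1-low tumors. MP10 (2019) lay above MP6 (1637), and WT ovaries held 2950 to 3229 TPM. Osr1, a zinc finger gene of the early urogenital mesoderm, was at 14.4, 5.36, 19.6 and 13.3 TPM in MP4, MP5, MP6 and MP9 and at 0.174 to 3.56 TPM in Wt1-low tumors, with no overlap (limma adjusted P = 0.0788). Zfpm2, the partner of GATA4 in the gonad, was at 3.57 TPM in MP4, under the 4.14 TPM of MP10, and at 18.8 to 52.3 TPM in MP5, MP6 and MP9 (limma adjusted P = 0.0892). The 3 called members are shared with other lists, so the lists are not independent of each other.

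Granulosa cells also carry WT1, and their markers were present in part. Foxl2, the factor that keeps granulosa identity, was at 76.0, 39.3, 49.5 and 27.3 TPM in MP4, MP5, MP6 and MP9, above the 0.553 to 22.1 TPM of Wt1-low tumors and below the 152 to 183 TPM of WT ovaries (limma adjusted P = 0.0933). Inha, the inhibin alpha subunit, was at 1430, 775 and 838 TPM in MP4, MP5 and MP6 but at 37.8 TPM in MP9, while the Wt1-low MP10 held 933 TPM. Fshr, the receptor for follicle stimulating hormone, was listed at 0 in all tumors but MP5 (1.52 TPM), and Cyp19a1, the aromatase gene, was listed at 0 in all Wt1-high tumors. Of 16 tested granulosa genes 0 were called, with a median log2 difference of 1.79 in 10 tumors, 0.89 in batches 2 and 3 and 0.46 within batch 3. Their summed level was 766 to 2773 TPM in Wt1-high tumors, 145 to 2345 TPM in Wt1-low tumors and 5511 to 9782 TPM in WT ovaries, and its part in the result was not tested. Cyp11a1, which starts steroid synthesis, was at 0.548 to 5.37 TPM in Wt1-high tumors and at 1.31 to 221 TPM in Wt1-low tumors (log2 difference -2.36 ± 0.97, limma adjusted P = 0.256), against 6487 to 6957 TPM in WT ovaries. The steroidogenic and theca list had 0 of 14 tested members called, with a median log2 difference of 0.77 in 10 tumors and -0.45 in batches 2 and 3.

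Stroma was uneven across the Wt1-high tumors. The fibroblast list had 1 of 26 tested members called higher (Col6a2), against 0.133% of all genes tested. The list's median log2 difference was 1.73 in 10 tumors and 0.73 in batches 2 and 3. Its summed level was 761 TPM in MP4, 4284 in MP5, 893 in MP6 and 8905 in MP9, against 226 to 1058 TPM in Wt1-low tumors, so MP4 and MP6 lay within the Wt1-low range. Dcn, the decorin gene of fibroblasts, was at 1050 TPM in MP9 and at 8.52 TPM in MP6. Lists of endothelium, macrophages, neutrophils, T and NK cells and B cells had 0 called members, and their summed levels overlapped between the groups. The macrophage list had a median log2 difference of 0.45 in 10 tumors, near the 0.51 of all genes, and 81.0% of its 21 tested members had a positive difference. The part of these cells in the result was not tested.

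**Figure D4:**
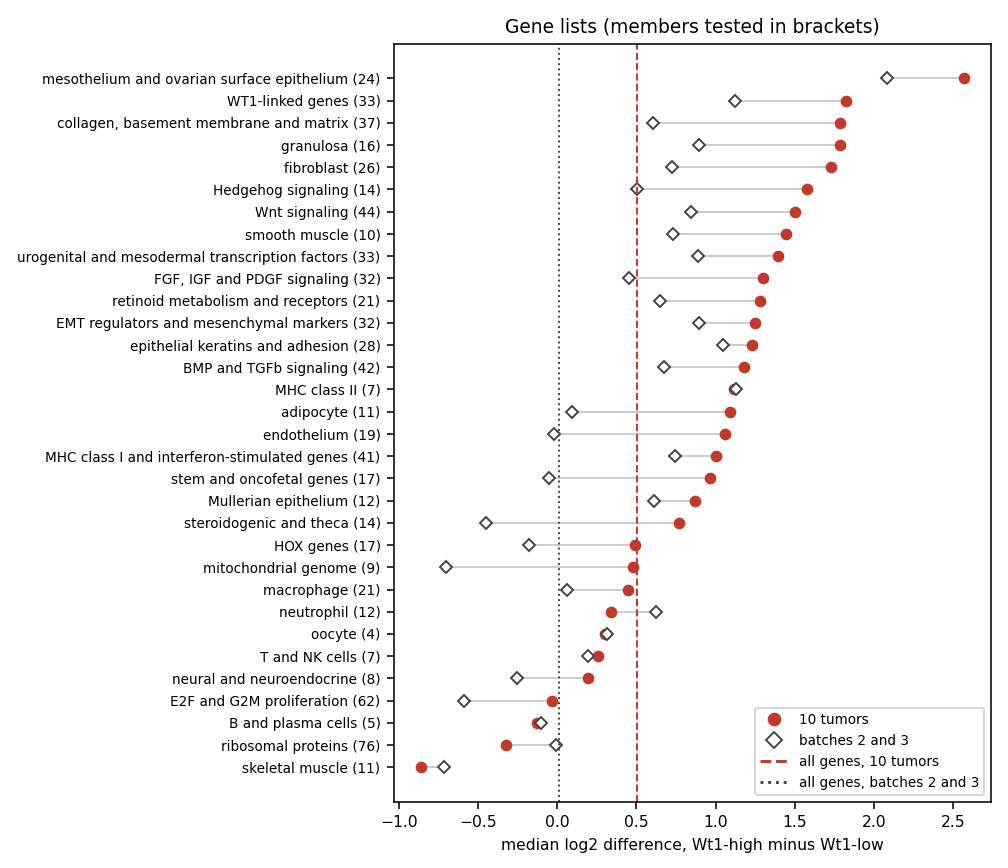
Median log2 difference, Wt1-high minus Wt1-low (x axis), of 32 gene lists (rows, with the number of members tested) in 10 tumors (red circles) and in batches 2 and 3 (open diamonds), with the medians of all genes as dashed (0.51) and dotted (0.01) lines. Mesothelium and ovarian surface epithelium is the highest list in both, at 2.57 and 2.09, and skeletal muscle is the lowest in both, at -0.86 and -0.72, except that E2F and G2M genes (-0.59) and the mitochondrial genome (-0.70) come near it in batches 2 and 3.

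Fewer genes lay on the Wt1-low side. No gene was called lower by limma at an adjusted P value under 0.05, and 68 genes (0.43%) were lower with no overlap. Clec7a, the beta-glucan receptor of macrophages, was at 10.9, 10.49, 5.79 and 13.7 TPM in MP4, MP5, MP6 and MP9 and at 18.0 to 172 TPM (median 61.3) in Wt1-low tumors (log2 difference -2.41 ± 0.55, limma adjusted P = 0.0892). Tcim was at 2.86 to 20.01 TPM and at 20.4 to 98.3 TPM, and Atp6v0d2, a proton pump subunit of osteoclasts and macrophages, was at 2.35 to 6.79 TPM and at 8.42 to 37.1 TPM. The macrophage list as a whole was not lower. Of its 21 tested members 81.0% had a positive difference, and at an unadjusted limma P value under 0.05, 3 were higher and 0 lower. With quantile normalization limma called 7 genes lower, Tcim and Atp6v0d2 among them (adjusted P = 0.0498 for each). Fastkd2 and Mrpl32, both of mitochondrial ribosome function, were at 27.9 to 51.6 against 54.8 to 116 TPM and at 9.52 to 26.7 against 32.1 to 83.3 TPM. Bpifb6 was listed at 0 in all 4 Wt1-high tumors and at 1.51 to 676 TPM in the Wt1-low tumors. A TPM of 0 means that no read was recovered, and in Wt1-high libraries a single read on 1 kb of transcript corresponds to 0.355 to 0.790 TPM.

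In batches 2 and 3 alone, 2 genes (0.0126%) were called lower, and they are named here after their values were seen. Esx1, an X-linked homeobox gene of the placenta, was at 0, 0.398, 1.25 and 0 TPM in MP4, MP5, MP6 and MP9 and at 94.0, 32.4 and 61.2 TPM in MP7, MP8 and MP10. Htr3a, a serotonin-gated ion channel, was at 1.10, 0.759, 2.56 and 0 TPM and at 88.4, 52.8 and 66.4 TPM. Their log2 differences were -5.45 ± 0.57 and -5.17 ± 0.54 (limma adjusted P = 0.0243 for each). Neither call held when any 1 of MP4, MP5, MP7, MP8, MP9 or MP10 was left out, nor with batch as a covariate, voom, quantile normalization, a pseudocount of 0.1 or no filter, each of which gave 0 genes called lower. Both are also high in MP1 (61.3 and 295 TPM) and lower in MP2 (5.26 and 19.5 TPM), but MP3, a Wt1-low tumor of batch 1, held 0.0575 and 1.04 TPM. Over 10 tumors the groups therefore overlapped, with limma adjusted P values of 0.130 and 0.0946. WT ovaries held 0 TPM of Esx1 and 0.0323 to 0.0985 TPM of Htr3a.

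None of the genes that describe the model was called. Trp53, the edited gene, was at 13.5 to 26.0 TPM in Wt1-high tumors and at 4.30 to 22.5 TPM in Wt1-low tumors other than MP10, which held 187 TPM. The table counts reads of the whole gene, so this level does not show whether the edit is present. Myc was at 51.7 to 222 TPM in Wt1-high tumors and at 7.09 to 419 TPM in Wt1-low tumors (limma adjusted P = 0.806). Whether this mouse gene's row counts reads of the MYC transposon is not given, so it need not show the level of the transgene. Krt7 was at 0.352 to 12.1 TPM and at 0.182 to 7.55 TPM. Pax8 and Muc16, markers of serous carcinoma, were too low to be tested, with 23.2 and 3.30 TPM in MP9 and at most 1.57 TPM of either in any other tumor. The authors reported these and other markers, WT1 among them, as protein by immunohistochemistry in all tumors they analyzed. RNA is a different measure, and whether these tumors were among those stained is not given. E2F and G2M genes had 0 of 62 members called and a median log2 difference of -0.03, against 0.51 for all genes, and of -0.59 in batches 2 and 3, against 0.01. Of the 62, 7 were lower and 0 higher at an unadjusted P value under 0.05, against 2.18% and 15.1% of all genes.

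No neighbor of Wt1 on the chromosome was called. Of 47 genes of the table within 1 Mb, 14 were tested besides Wt1 and Wt1os, and 0 were called. Their median log2 difference was 0.32, near the 0.51 of all genes. Rcn1, a calcium-binding protein of the endoplasmic reticulum and the highest of the 14, was at 82.1, 248, 125 and 209 TPM in MP4, MP5, MP6 and MP9, while MP8 and MP10 held 133 and 165 TPM (log2 difference 2.30 ± 0.79, limma adjusted P = 0.204). Eif3m was at 207 to 339 TPM and at 191 to 735 TPM.

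Over the 10 tumors, the genes whose log2(TPM + 1) was most like that of Wt1 were Cyp2d22 (Pearson r = 0.98), Ankrd35 (0.97), Rsph1 (0.97), Afap1l2 (0.96) and Rspo1 (0.96). These values describe 10 points that fall in 2 clusters and share batches, so no P value is given. They were picked from all genes for this likeness to the gene that formed the groups and support nothing further. Cyp2d22 was at 20.7 TPM in MP4, 53.1 in MP5, 13.6 in MP6 and 36.5 in MP9. Its Wt1-low values stayed within 1.98 to 3.58 TPM, and WT ovaries held 48.9 to 75.8 TPM.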

How the data were processed

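Bulk RNA of 10 MP tumors and 3 WT ovaries had been sequenced from polyA-selected libraries with single reads of 76 bp. The authors deposited 1 table of TPM values for 53465 genes, with gene identifiers, coordinates and lengths, and replicates were not pooled. The submitters' processing notes list FastQC 0.11.5, Trimmomatic 0.36, STAR 2.5.3a and featureCounts 1.6.3 and mouse builds, while the labels' protocol names a human build, HTSeq and RPKM, so unit and build were taken from the table. Start and end equalled those in GENCODE release 21 of GRCm38 for 96.0% of its genes. Strand use in counting is not given in the sources used here, so antisense partners cannot be told apart from the genes they overlap. Multiplying TPM by length gave whole reads for 100% of values above 0 (tolerance 0.01), from which depth was recovered.

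Members and gene lists were chosen with earlier results of these data known. Because the groups were formed from Wt1 in the same libraries, P values describe association with that split here. Nothing in the labels says that the 10 tumors come from 10 mice, so P values measure the spread between these samples. Genes that reached 1 TPM in 3 or more of the 10 tumors were tested as log2(TPM + 1), with a pseudocount of 1, by limma 3.58.1 (trend and robust, 2-sided) in R 4.3.3. A difference on this scale understates the change of low genes. Benjamini-Hochberg adjustment ran over 15831 genes, without Wt1 and Wt1os, with a threshold of 0.05. The fit over 10 tumors had no covariate, and a second fit used batches 2 and 3. The 32 lists were written by hand and are described by counts and medians, with no set test. Of all genes tested 0.133% were called higher and 0.0% lower, so a count of 0 does not set a list apart. Named genes were the 12 largest differences in each direction past the threshold with no overlap, a mean of at least 5 TPM and a difference of at least 1 within batch 3, filled by the moderated statistic. They also took up to 4 genes per list, the model's own genes, neighbors within 1 Mb and the 5 best correlations with Wt1. Exceptions are marked in the text. Alternatives varied the pseudocount, filter, scaling, length trend, limma options, voom on recovered reads, WT ovaries in the fit, batch, Wt1 as a continuous term and single tumors. The limma script was tested on simulated data. Promoters came from RefSeq. Figures used matplotlib 3.10.9 and tables pandas 2.3.3 in Python 3.11.15.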

Additional observations from a re-analysis of the deposited data

Results flagged for a closer look

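A single tumor stood apart from the rest of its group, by Dixon's test at the 95% level, in 8 of 148 groups checked, and chance gives about 1 in 20. Among Wt1-high tumors, MP6 was far below the other 3 for Gas6 (70.1 TPM) and Wnt4 (5.34 TPM), MP9 was far below them for Inha (37.8 TPM), and MP5 was far above them for Dhrs3 (158 TPM). Among Wt1-low tumors, MP8 was far above the others for Stra6 (1.79 TPM) and Amh (2.15 TPM), MP10 for Igf2 (2.58 TPM) and MP2 for Msx2 (0.329 TPM).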

How the results depend on the processing

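All 21 genes kept a positive difference in all 24 alternatives to the fit over 10 tumors. They were called on these same tumors and did not overlap, so this sign was largely fixed in advance and is no support. The count of calls did not hold. Against 21 called higher and 0 lower, a pseudocount of 0.1 gave 1 and 0, no filter 0 and 0, and a filter of 5 TPM in 3 tumors 24 and 0. Median-of-ratios scaling gave 6 and 0, quantile normalization 20 and 7, and removal of the length trend 21 and 1. Limma without trend and robust gave 33 and 0, and voom on recovered reads 34 and 0. All 13 libraries in the fit gave 273 and 12, batch as a covariate 27 and 1, and Wt1 as a continuous term 473 and 12. No MP2 and MP10 gave 1 and 0, and batches 2 and 3 alone 0 and 2. These counts are over all genes tested and need not hold the same genes. Of the 21, 10 passed with quantile normalization and 12 with the length trend removed. Leaving out each tumor in turn gave 0 to 402 higher and 0 to 19 lower. In batches 2 and 3, against 0 higher and 2 lower, WT ovaries in the fit gave 3 higher, Wt1 as a continuous term 10 higher, and single tumors left out 0 to 6 higher and 0 to 2 lower. There the count of genes called lower was 0 with a pseudocount of 0.1, no filter, quantile normalization, voom or batch as a covariate. The cause was not tested, except that the smaller fits hold fewer tumors. The lists' medians were not compared for Wt1 as a continuous term, whose scale differs, and leaving out MP2 and MP10 in batches 2 and 3 equals leaving out MP10.

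Directions turned for Myc (0.49 on the log2 scale, but -0.18 with median-of-ratios scaling, -0.087 with quantile normalization, -1.61 with batch as a covariate or in batch 3, -1.74 in batches 2 and 3, and -0.14 to 1.00 with 1 tumor left out, negative without MP2). They turned for Trp53 (0.23, but -0.41, -0.61, -0.48 and -0.85 in the same order, -0.39 with the length trend removed, and -0.10 to 0.93 with 1 tumor left out, negative without MP1 and MP3), and for Inha (-1.95 with batch as a covariate or in batch 3). The lowest Wt1-high minus the highest Wt1-low summed level of the mesothelial list was 34.1 TPM, and -411 TPM with the called members left out, an alternative chosen after seeing the data. Depth limits genes near 1 TPM most in MP5 and MP10, where 1 read on 1 kb corresponds to 0.790 and 0.643 TPM. No paired analysis was possible because the tumors compared come from 1 labelled group and share no replicate numbers.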

Other observations

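Skeletal muscle genes varied between tumors on both sides of the split. Of 11 tested, 0 were called, and their summed level was 23.9 to 361 TPM in Wt1-high tumors and 21.95 to 2105 TPM in Wt1-low tumors. Ckm, muscle creatine kinase, was at 512 TPM in MP1, 320 in MP7 and 89.7 in MP6, and at 0.0176 to 0.324 TPM in WT ovaries. Mylpf, a fast muscle myosin light chain, was at 995 TPM in MP1 and at 97.6 TPM in MP7, and at 7.15 to 8.99 TPM in WT ovaries.

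Msx2, a homeobox gene, was at 44.9 TPM in MP4, 6.99 in MP5 and 45.0 in MP9 and listed at 0 in MP6, with at most 0.329 TPM in Wt1-low tumors and 0.219 TPM in WT ovaries. Emx2, a homeobox gene of the urogenital tract, was at 228 TPM in MP9, 71.4 in MP5 and 20.04 in MP4 but at 0.237 TPM in MP6, and the Wt1-low MP8 held 20.5 TPM.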
